A study of Mus musculus with 4 samples.

Results

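The genes described here encode 10 surface molecules by which group 2 innate lymphoid cells (ILC2s) are identified, sorted or judged to be activated: Klrg1, Icos, Icosl, Thy1, Ptgdr2, Kit, Cd69, Ly6a, Cd44 and Ptprc. They were taken by symbol from the deposited tables, where each matched 1 of 55401 gene models. Each library was made from 500 purified ILC2s of C57BL/6 mouse lung. Cells received IL-33 alone (2 libraries) or IL-33 and the peptide angiotensin II (Ang II, 2 libraries), each for 6 h, so that every library carries IL-33 and none is from unstimulated cells. The labels give neither the age or number of mice nor the antigens used for sorting.

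ILC2s are tissue-resident lymphocytes that carry no rearranged antigen receptor and respond to epithelial alarmins such as IL-33 with type 2 cytokines. Because no single surface molecule defines them, they are usually sorted as CD45-positive cells that lack the markers of other lineages and carry a combination of Thy1, Sca-1, KLRG1, ICOS or the receptors for IL-33 and IL-7. CD69 and CD44 are induced or raised on activated lymphocytes, and CD69 also holds lymphocytes in tissue by drawing the egress receptor S1PR1 from the surface. Ang II is the active hormone of the renin-angiotensin system, and the series title ties its action on ILC2s to the AT1a receptor.

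Expression is given as FPKM, a fragment count divided by transcript length and by the library's mapped fragments, which lets levels of different genes be compared within a library. Counts are not among the values, and library depth is therefore unknown. Per library, the FPKM total lay between 394808 and 431014, and between 12028 and 13401 gene models were above 0. The IL-33 libraries were close to copies of each other. For 3918 genes of low to middle abundance, their spread was that of counting noise at a depth of 10600000 fragments, and the rate at which low genes were missed in a single library of the pair implies 12400000. The same spread in the Ang II pair would need a depth of 64900 fragments, where its missed low genes imply 4980000. The IL-33 libraries thus differed by about as much as sampling noise gives, and in the tests their mean counts as 1 sample, against 2 Ang II samples. IL-33 and Ang II values stand in separate files, so any difference in how those files were made cannot be told apart from the treatment.

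Of the 10 genes, 7 averaged 1 FPKM or more over the resulting 3 columns and entered the test. All 7 also averaged 1 FPKM or more in each group, so none entered through a single group. Icosl, Thy1 and Ptgdr2 lay below that level. With IL-33 alone the order of levels was the same for the 7 measured genes in both libraries, from Ly6a, Icos and Klrg1 through Cd44, Cd69 and Ptprc to Kit. In both Ang II libraries Ly6a stayed first, Klrg1 stood above Icos, and Cd69 stood above Cd44 and Ptprc.

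**Figure D1:**
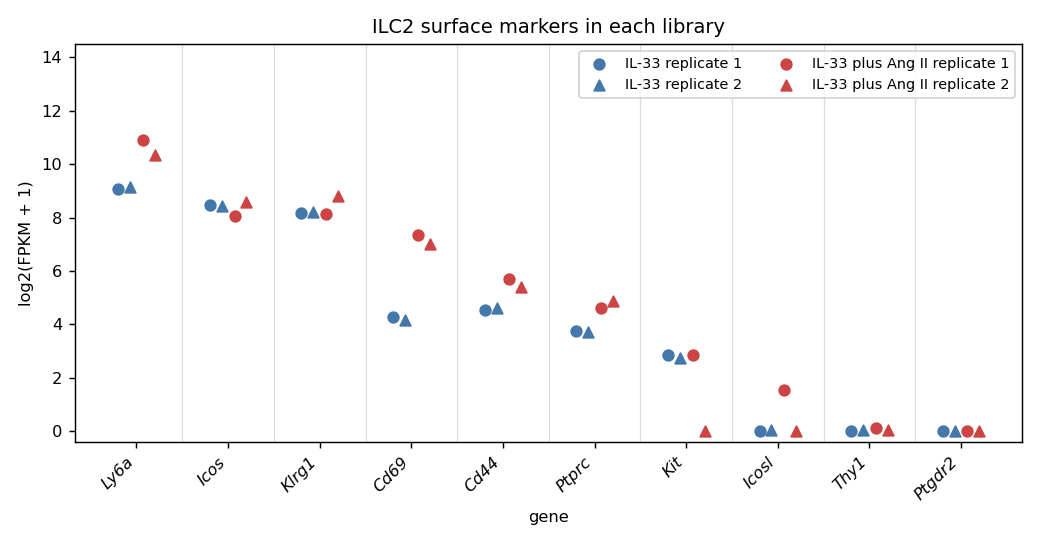
Level of each of the 10 surface marker genes as log2(FPKM + 1), with 1 point per library, blue for IL-33 and red for IL-33 plus Ang II, circles for replicate 1 and triangles for replicate 2. Cd69, Ly6a, Cd44 and Ptprc lie higher in both red points than in both blue points, the groups overlap for Icos, Klrg1 and Kit, and Thy1 and Ptgdr2 lie at or near 0 throughout.

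Both Ang II libraries lay above both IL-33 libraries for 4 of the 7 measured genes, Cd69, Ly6a, Cd44 and Ptprc. Both lay below for 0 of the 7. Of all 9215 genes tested, 24.4% were higher in both Ang II libraries and 33.5% were lower. The median log2 fold change of the 7 was 0.97 and that of all tested genes 0.00. None of the 7 passed an adjusted p of 0.05 (limma, two-sided, Benjamini-Hochberg over 9215 genes), and neither did any other gene, so the share that passed was 0%. At an unadjusted p under 0.05 only Cd69 among the 7 was higher, as were 2.79% of all tested genes. Whether the samples are separate mice or cultures is not in the labels, so the p-values reflect only how far these samples differ among themselves, and that spread may be technical.

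Cd69 encodes a C-type lectin-like receptor that appears within hours of lymphocyte activation. It stood at 18.4 and 16.9 FPKM under IL-33 alone, and at 163 and 128 FPKM once Ang II was added. Both Ang II values were far above both IL-33 values, 9.24-fold and 7.29-fold over the IL-33 mean. On the log2(FPKM + 1) scale the difference was 2.97 (SE 0.33, 95% interval 1.40 to 4.53), with an adjusted p = 0.176 by limma. Among the genes tested, Cd69 ranked 2894th and 3093rd by level in the IL-33 libraries and 460th and 539th in the Ang II libraries. The Ang II libraries differed from each other by 0.34 on the log2 scale at Cd69, against a median of 0.51 for 420 genes of like level. Cd69 lies on chromosome 6 of mm10 (129267325 to 129275436, minus strand), and the longest of its 5 annotated transcripts shares no 100-base stretch with a transcript of another gene.

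Ly6a encodes Sca-1, a small glycolipid-anchored protein used to gate lung ILC2s and known to be inducible by interferon. It was the most abundant of the 10 genes in every library, at 537 and 558 FPKM under IL-33 alone, against 1937 and 1308 FPKM with Ang II added. The groups did not overlap, although the Ang II libraries lay further from each other than the IL-33 libraries did. The fold over the IL-33 mean was 3.54 and 2.39, and the log2 difference 1.54 (SE 0.38, 95% interval -0.27 to 3.35, adjusted p = 0.424 by limma). Its rank by level went from 93rd and 92nd to 18th and 34th. Ly6a lies on chromosome 15 (74994877 to 74998031, minus strand) amid a family of related Ly6 genes. Its longest transcript shared 0% of its 100-base stretches with other genes. Only exact matches of that transcript were sought, and how reads were placed among the relatives was not tested.

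Cd44, the receptor for hyaluronan and osteopontin, marks antigen-experienced and activated lymphocytes. It stood at 22.3 and 23.6 FPKM under IL-33 alone, against 51.0 and 41.6 FPKM with Ang II added. Both Ang II libraries were higher, by 2.22-fold and 1.81-fold over the IL-33 mean. The log2 difference was 0.97 (SE 0.36, adjusted p = 0.601 by limma), and its 95% interval reached from -0.75 to 2.70. Ptprc encodes CD45, the transmembrane phosphatase of all nucleated blood cells, which acts on Src-family kinases. It stood at 12.4 and 12.2 FPKM under IL-33 alone, against 23.1 and 28.7 FPKM with Ang II added, again without overlap. Its log2 difference of 1.00 (SE 0.44, 95% interval -1.07 to 3.08, adjusted p = 0.682 by limma) was of the same size as that of Cd44. The tables give 1 value per gene, so the CD45 and CD44 splice forms, for which 13 and 9 transcripts are annotated, cannot be separated here.

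With both IL-33 libraries counted as separate samples, limma gave adjusted p = 0.0121 for Cd69 and 0.044 for Ly6a, while Cd44 (0.101) and Ptprc (0.1) stayed above the threshold. In that setting 4.96% of all tested genes passed and were higher with Ang II. It treats near-copies of a library as independent.

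**Figure D2:**
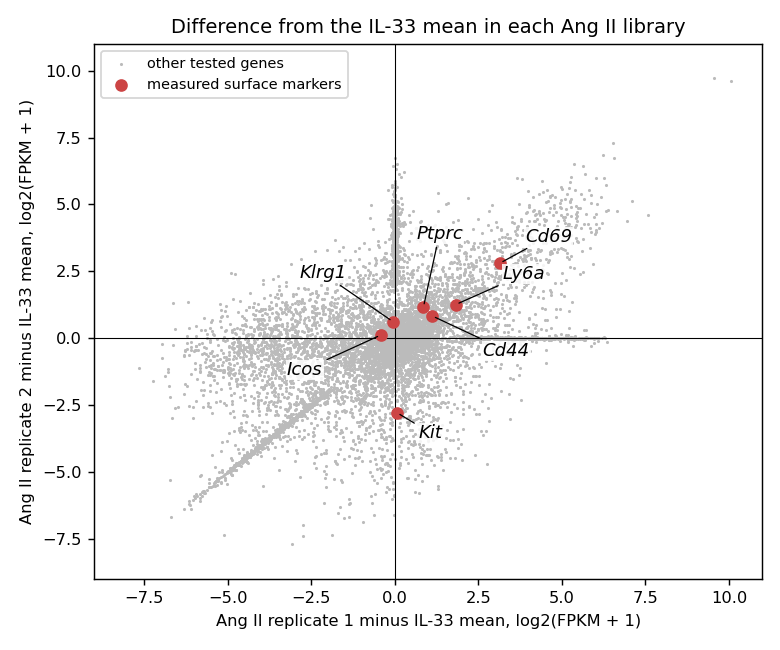
Difference of each Ang II library from the IL-33 mean on the log2(FPKM + 1) scale, replicate 1 on the horizontal and replicate 2 on the vertical axis, for 9215 tested genes (grey) and the 7 measured surface markers (red). Cd69, at 3.14 and 2.80, lies furthest from 0 of the 7 in both libraries, Ly6a, Cd44 and Ptprc also lie above 0 in both, and Kit departs only in replicate 2; the grey diagonal below 0 holds genes at or near 0 FPKM in both Ang II libraries.

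Since Ptprc is a pan-leukocyte gene, each marker was also set against it within its library. The ratio of Cd69 to Ptprc was 1.48 and 1.38 with IL-33 and 7.04 and 4.48 with Ang II, so Cd69 was higher on this measure too. For Ly6a the ratio was 43.1 and 45.6 against 83.7 and 45.6, and for Cd44 it was 1.79 and 1.93 against 2.20 and 1.45. On this measure Ly6a was clearly higher in Ang II replicate 1 only, with replicate 2 level with an IL-33 library, and Cd44 overlapped. The ratio of Icos to Ptprc was lower in both Ang II libraries (28.7 and 28.4 against 11.4 and 13.4), as was that of Klrg1 (23.4 and 24.2 against 12.2 and 15.7). Icos and Klrg1 themselves overlapped between the groups, while the denominator of their ratios, Ptprc, was higher in both Ang II libraries. The ratio of Kit was 0.496 and 0.470 against 0.271 and 0.000349, again with the higher denominator and with Kit itself near 0 in replicate 2. These ratios are a description and were not tested.

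**Figure D3:**
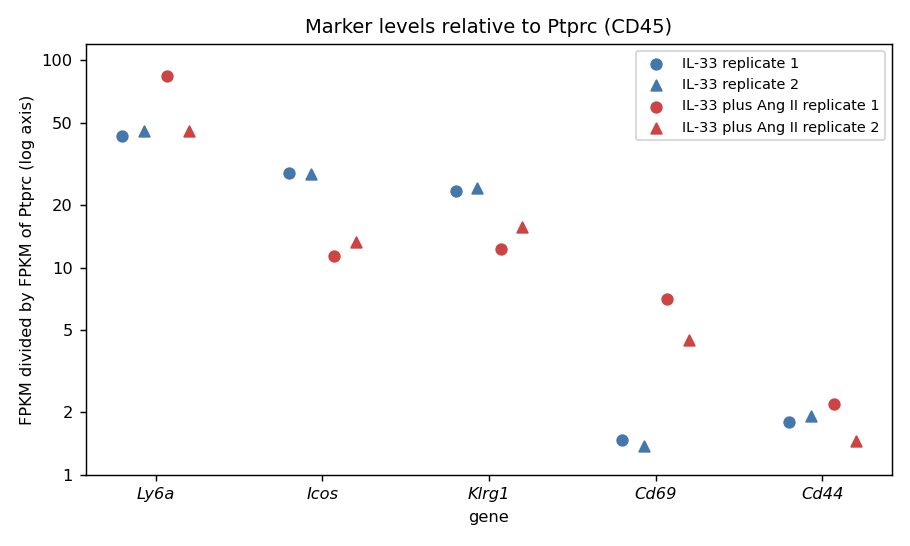
FPKM of Ly6a, Icos, Klrg1, Cd69 and Cd44 divided by the FPKM of Ptprc in the same library, on a log axis, with 1 point per library (blue for IL-33, red for IL-33 plus Ang II, circles for replicate 1 and triangles for replicate 2). The Cd69 ratio is higher in both Ang II libraries (7.04 and 4.48 against 1.48 and 1.38), the Icos and Klrg1 ratios are lower in both, the Ly6a ratio is clearly higher in Ang II replicate 1 only, and the Cd44 ratio overlaps.

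Promoter sequences are shown for Cd44 and Ptprc, which were higher in both Ang II libraries by a like amount, and for Ptgdr2, which was listed at 0 throughout. RefSeq (GRCm38.p6) promoters were at hand for 5 of the 10 genes, Ptprc, Cd44, Kit, Icosl and Ptgdr2. Each line gives the 250 bases before a RefSeq start, 5′ to 3′ on the gene's strand. Capitals mark a match on either strand to any of 6 motifs. The motif of AP-1, a factor induced by many activating signals, was searched as TGANTCA. Those of CREB, STAT factors and NF-kB were searched as TGACGTCA (CRE), TTCNNNGAA (STAT) and GGANTTTCC (kB). GATA factors, which include the ILC2 regulator encoded by Gata3, were searched as AGATAA. The GC box, bound by Sp factors in many promoters, was searched as GGGCGG. For Cd44 the window is chr2:102901666-102901915, minus strand. For Ptprc it is chr1:138175306-138175555, minus strand, and for Ptgdr2 chr19:10936910-10937159, plus strand. The Ptprc window lies inside the gene's GENCODE span (138062861 to 138175708), so downstream of the start in that annotation. Windows of Kit and Icosl reach into the GENCODE spans of those genes.
Cd44: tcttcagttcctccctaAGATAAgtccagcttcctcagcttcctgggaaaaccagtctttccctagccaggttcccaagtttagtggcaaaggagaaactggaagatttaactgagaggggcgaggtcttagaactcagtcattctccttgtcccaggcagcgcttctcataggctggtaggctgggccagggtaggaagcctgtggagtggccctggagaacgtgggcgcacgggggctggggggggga
Ptprc: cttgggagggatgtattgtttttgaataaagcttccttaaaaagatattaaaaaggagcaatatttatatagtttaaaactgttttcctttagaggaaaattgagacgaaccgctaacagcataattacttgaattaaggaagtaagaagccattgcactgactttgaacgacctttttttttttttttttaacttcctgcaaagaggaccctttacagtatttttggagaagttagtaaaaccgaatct
Ptgdr2: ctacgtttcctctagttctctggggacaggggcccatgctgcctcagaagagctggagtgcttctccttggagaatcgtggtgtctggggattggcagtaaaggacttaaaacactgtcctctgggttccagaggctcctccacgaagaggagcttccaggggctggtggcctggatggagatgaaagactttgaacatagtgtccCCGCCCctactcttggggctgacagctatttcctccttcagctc
The Cd44 window held 1 GATA match, the Ptgdr2 window 1 GC box, and the Ptprc window none of the 6 motifs. The capitals CCGCCC in the Ptgdr2 line are the GC box read on the other strand. A second RefSeq start of Ptprc, not shown, had 1 GATA match, and the windows of Kit and Icosl, also not shown, held 1 GC box each. GATA matches stood in 9.99% of 32851 promoter windows of this length and GC boxes in 32.7%. AP-1 and STAT motifs, present in 6.75% and 7.02% of all windows, were in none of the 5 genes' windows, and neither were CRE (1.55%) or kB (1.07%).

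Icos and Klrg1, the co-stimulatory and the inhibitory receptor of the set, were abundant in every library and overlapped between groups. Icos encodes a relative of CD28 through which ILC2s receive survival and cytokine signals. It stood at 357 and 348 FPKM under IL-33 alone, against 264 and 383 FPKM with Ang II added, with 1 Ang II library below and the other above both IL-33 values. Its log2 difference was -0.15 (SE 0.38, 95% interval -1.94 to 1.64, adjusted p = 0.871 by limma). Klrg1 encodes a lectin-like receptor of mature ILC2s that binds cadherins. It stood at 291 and 296 FPKM against 283 and 449 FPKM, and only replicate 2 of the Ang II pair was clearly higher. Its log2 difference was 0.28 (SE 0.45, 95% interval -1.87 to 2.44, adjusted p = 0.807 by limma). Both intervals are wide, so changes of a few fold in either direction are within them. Icos lies on chromosome 1 (60977927 to 61000320, plus strand) and Klrg1 on chromosome 6 (122270596 to 122282882, minus strand).

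Icosl, the gene of the ICOS ligand that ILC2s can themselves display, was at 0.01 and 0.02 FPKM with IL-33, at 1.92 FPKM in Ang II replicate 1 and at 0 in replicate 2. Only that single library was above 1 FPKM, and no test was made. In each library the receptor gene Icos was over 100 times the level of Icosl. Icosl lies on chromosome 10 (78069302 to 78083913, plus strand).

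Kit encodes the receptor for stem cell factor, found on mast cells, progenitors and a part of the ILC2s. It stood at 6.17 and 5.75 FPKM with IL-33, at 6.26 FPKM in Ang II replicate 1 and at 0.01 FPKM in replicate 2. Ang II replicate 1 was level with IL-33, and replicate 2 was near 0. Between the Ang II libraries Kit differed by 2.85 on the log2 scale, where 1535 genes of like level differed by a median of 2.54. Its log2 difference was -1.36 (SE 1.92, 95% interval -10.46 to 7.73, adjusted p = 0.781 by limma). Without Ang II replicate 2 it was 0.06, and without replicate 1 -2.78. Of 11 mast cell and basophil markers that include Kit, 8 were under 1 FPKM in all 4 libraries, among them Fcer1a and Cpa3, which encode an IgE receptor chain and a mast cell protease. Fcer1a was listed at 0 throughout and Cpa3 reached at most 0.10 FPKM. The summed level of that list was 8.30 and 8.97 FPKM with IL-33 and 38.7 and 28.4 FPKM with Ang II. Most of the latter was Hdc, the gene of the histamine-forming enzyme, at 28.43 and 26.04 FPKM against 0.14 and 0.06 FPKM. Hdc entered the test only through the Ang II group, so the filter favoured its direction. Prss34, also measured, overlapped between groups, at 1.66 and 2.43 FPKM with IL-33 and 3.38 and 2.10 FPKM with Ang II. Kit lies on chromosome 5 (75574916 to 75656722, plus strand).

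Thy1 and Ptgdr2, the sorting antigens Thy-1 (CD90) and CRTH2, were at or near 0 in every library. Thy1 was listed at 0 and 0.04 FPKM under IL-33 alone, against 0.09 and 0.03 FPKM with Ang II added. Ptgdr2, whose product is the receptor by which ILC2s follow prostaglandin D2, was listed at 0 in all 4 libraries. Of the 10 genes, 7 were thus above 1 FPKM in at least 3 of the 4 libraries, and Thy1, Ptgdr2 and Icosl were not. A listed 0 in these files need not mean absence, since genes that cells in general use could also be near 0. Polr2a, which encodes the largest subunit of RNA polymerase II, was at 0.05 FPKM in both Ang II libraries and at 5.64 and 6.37 FPKM with IL-33, and Gusb was at 0 and 0.08 FPKM with IL-33. Thy1 lies on chromosome 9 (44043384 to 44048579, plus strand) with 6 annotated transcripts, none overlapping another gene. Ptgdr2 lies on chromosome 19 (10937160 to 10942511, plus strand) and shares exonic bases with Ccdc86 on the other strand. Whether the authors' counting used strand is not given in the sources used here, so reads from that overlap could be placed on either gene. Ccdc86 was at 6.04 and 6.15 FPKM under IL-33 alone, against 0 and 0.01 FPKM with Ang II added. Where Ccdc86 was measured, in the IL-33 libraries, Ptgdr2 was still listed at 0.

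The label of the cells was checked against 16 ILC2 identity markers, of which 14 were measured. Icos, Klrg1 and Ptgdr2 are in this list and also among the genes described here, so the check is not independent of them. With Ang II, 4 of the 14 stood higher and 2 lower in both replicates, and their median log2 fold change was 0.08. Across the 9215 genes in the test, the higher call was made for 24.4% and the lower call for 33.5%. Ptgdr2 and Il5 were listed at 0 in all 4 libraries. The 4 higher genes were Gata3, the lineage factor (104 and 108 against 185 and 130 FPKM), Il2ra (61.9 and 62.4 against 128 and 107 FPKM), Areg (7.38 and 7.51 against 217 and 344 FPKM) and Calca (1989 and 1995 against 3532 and 3138 FPKM). The 2 lower genes were the cytokine gene Il13 (70.0 and 73.7 against 16.3 and 0.53 FPKM) and the factor gene Bcl11b (5.37 and 5.44 against 0.62 and 2.81 FPKM). Of 18 lineage markers that an ILC2 sort usually excludes, 10 were under 1 FPKM in all libraries, among them Itgax, Fcer1a, Ncr1 and Klrb1c, each listed at 0 throughout. The 6 that were measured were each lower in both Ang II libraries, but 4 of them (Adgre1, Cd4, Cd5 and Cd3e) had an Ang II mean under 1 FPKM and so entered only through the IL-33 group, which favours that direction. The 6 include the T cell receptor complex genes Cd3d (61.3 and 65.2 against 23.8 and 0 FPKM) and Cd3e (9.92 and 10.6 against 0.22 and 0.74 FPKM).

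Several members are also carried by other leukocytes, so marker lists of other cells are given beside them. Of 12 T cell markers, 11 were measured and all 11 were lower in both Ang II libraries, as were 33.5% of all tested genes. Of the 11, 5 had an Ang II mean under 1 FPKM and entered only through the IL-33 group, so that their direction was fixed by the filter. The summed level of the list was 1355 FPKM in each IL-33 library and 966 and 469 FPKM with Ang II. Of 12 macrophage and myeloid markers, 5 were measured, 1 higher and 3 lower in both, with sums of 2086 and 2052 FPKM against 2034 and 916 FPKM. Lyz2, the lysozyme gene of myeloid cells, made up most of those sums, at 1700 and 1668 against 1016 and 683 FPKM. Cd68 stood at 150 and 150 against 130 and 51.6 FPKM, and Chil3 at 212 and 210 against 696 and 158 FPKM. Marco, the gene of a macrophage scavenger receptor, was listed at 0 under IL-33 alone but had 191 and 23.2 FPKM in the presence of Ang II. Adgre1 stood at 24.2 and 23.6 against 0.06 and 0.04 FPKM. Marco entered the test only through the Ang II group and Adgre1 only through the IL-33 group, so the filter favoured their directions. The other 7 were under 1 FPKM in every library, C1qb and Itgax being listed at 0. Of 12 NK and ILC1 markers, 5 were measured, 0 higher and 3 lower, with sums of 73.7 and 73.0 FPKM against 0.10 and 54.6 FPKM. The 3 lower genes, Nkg7 (29.9 and 30.9 FPKM under IL-33 alone), Klrd1 (21.1 and 19.4 FPKM) and Klrk1 (4.71 and 4.41 FPKM), reached at most 0.01 FPKM with Ang II and entered only through the IL-33 group. Gzmb stood at 17.8 and 18.1 against 0 and 41.3 FPKM, and Gzma reached 13.3 FPKM in Ang II replicate 2 alone. Ncr1, Klrb1c, Tbx21 and Klra8 were listed at 0 throughout. Of 10 epithelial and stromal markers, 5 were measured, 0 higher and 3 lower in both, with sums of 357 and 347 FPKM against 81.6 and 199 FPKM. Of 8 ILC3 markers, 2 were measured, 1 higher and 1 lower, with sums of 92.1 and 89.9 FPKM against 59.2 and 59.8 FPKM. The IL-33 sums were all Lta, the lower gene, which stood at 21.3 and 41.0 FPKM with Ang II. Il17a, the higher gene, was listed at 0 under IL-33 alone, against 37.9 and 16.6 FPKM with Ang II added. It entered the test only through the Ang II group, so the filter favoured its direction. No gene of these lists passed the adjusted threshold. Of 8 B cell markers, 2 were measured and neither separated the groups, with sums of 20.9 and 18.6 FPKM against 93.2 and 3.12 FPKM. Of 9 red blood cell and platelet markers, 8 were measured, 0 higher and 5 lower in both. They summed to 25160 and 24950 FPKM with IL-33 and 3845 and 1601 FPKM with Ang II. Cd69, Ly6a, Cd44 and Ptprc stood higher in the same Ang II libraries in which the T cell and red blood cell sums were lower. The part of these other transcripts in the members' levels was not tested. In such pooled samples, fewer cells of a type and less RNA per cell cannot be told apart.

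Cd69 and Ly6a were next set beside other surface antigens of ILC2s. Of 34 such genes, 30 were measured, 5 stood higher and 14 lower with Ang II in both replicates, and their median log2 fold change was -0.31 with 0 past the adjusted threshold. Among all tested genes, too, more were lower (33.5%) than higher (24.4%). Of these 30, 3 had an IL-33 mean and 4 an Ang II mean under 1 FPKM and so entered through a single group. The most abundant was Tnfrsf18, which encodes the co-stimulatory receptor GITR, at 2353 and 2342 FPKM under IL-33 alone, against 1013 and 1410 FPKM with Ang II added. The chemokine receptor gene Ccr8 stood at 1014 and 1022 against 688 and 671 FPKM. Pdcd1, the gene of the checkpoint receptor PD-1, stood at 531 and 545 against 123 and 281 FPKM. All 3 were lower in both Ang II libraries. Il2rg, the gene of the common gamma chain, stood at 985 and 1010 against 672 and 1077 FPKM, and overlapped between groups. The tetraspanin gene Cd53 also overlapped (757 and 760 against 722 and 799 FPKM), and Cd52 stood at 441 and 427 against 366 and 418 FPKM.

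Because CD69 acts on tissue retention, genes of retention and egress were set beside Cd69. Of 19 such genes, 16 were measured, and 5 stood higher and 7 lower with Ang II in both replicates. Among all tested genes, 24.4% were higher and 33.5% lower. The median log2 fold change of the 16 was -0.96, with 0 past the adjusted threshold. Of the 16, 2 had an IL-33 mean and 5 an Ang II mean under 1 FPKM. S1pr1, the egress receptor that CD69 binds, stood at 20.2 and 19.0 FPKM under IL-33 alone, against 0.18 and 0.10 FPKM with Ang II added (log2 difference -4.18, SE 0.49, adjusted p = 0.184 by limma). Ccr7, which guides lymphocytes to lymphatics, stood at 78.9 and 83.0 against 0.14 and 0.11 FPKM. Both of these egress genes were near 0 in the Ang II libraries, in which Cd69 was high. They are among the 5 genes that entered the test only through the IL-33 group, so the direction of their differences was favoured by the filter. Klf2, which encodes a factor that drives S1pr1, did not separate the groups, at 7.25 and 6.47 against 9.15 and 0 FPKM. Cxcr6, the most abundant gene of the list and a receptor of tissue lymphocytes, overlapped, at 1223 and 1236 against 1042 and 1375 FPKM. The regulator of G protein signalling Rgs1 stood at 66.9 and 66.1 against 91.6 and 119 FPKM, and the integrin gene Itgb7 at 29.9 and 27.7 against 44.3 and 91.6 FPKM, both higher in both Ang II libraries. Rgs2 overlapped (166 and 164 against 94.5 and 284 FPKM), and Selplg, the gene of the adhesion ligand PSGL-1, stood lower in both (273 and 271 against 169 and 187 FPKM). Ccr7 and S1pr1 are also genes of naive T cells, and their levels were lower in the same libraries as the T cell markers above.

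**Figure D4:**
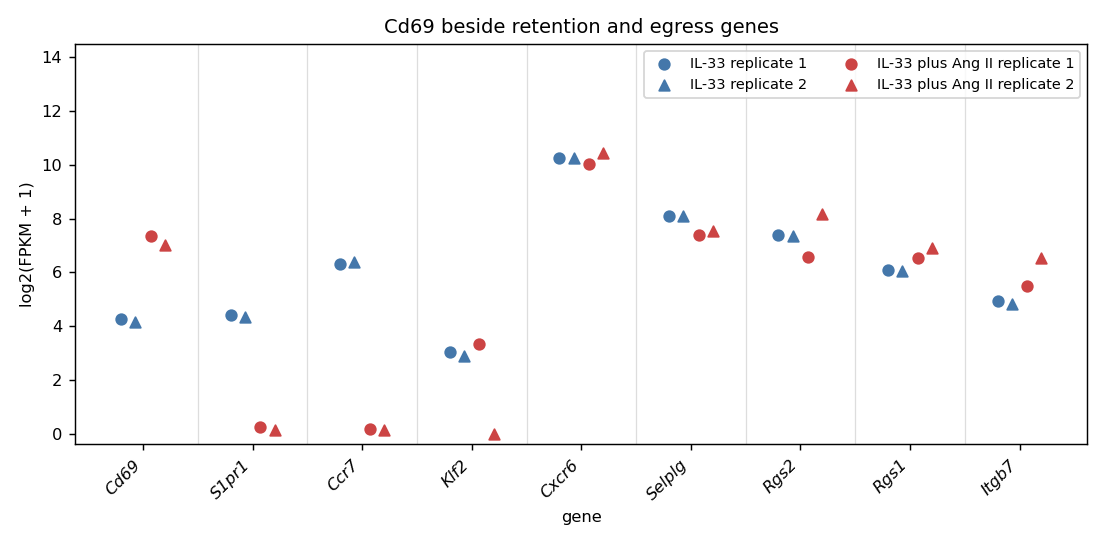
Level of Cd69 and of 8 retention and egress genes as log2(FPKM + 1), with 1 point per library (blue for IL-33, red for IL-33 plus Ang II, circles for replicate 1 and triangles for replicate 2). In the Ang II libraries Cd69 is high while S1pr1 and Ccr7 are near 0, and Cxcr6 overlaps between the groups.

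Ligands of the members, and the enzymes that make them, gave few measured genes. Of 20 such genes, 11 were measured, and 2 stood higher and 6 lower with Ang II in both replicates. Among all tested genes, 24.4% were higher and 33.5% lower. The median log2 fold change of the 11 was -0.61, with 0 past the adjusted threshold. Spp1, which encodes the CD44 ligand osteopontin, stood at 0.28 and 0.51 FPKM under IL-33 alone, against 130 and 149 FPKM with Ang II added. It entered the test only through the Ang II libraries. Lgals9, which encodes the lectin galectin-9, was the other gene of the list that was higher in both, at 300 and 292 against 405 and 526 FPKM. Hpgds, the haematopoietic prostaglandin D synthase that makes the ligand of the Ptgdr2 product, stood at 14.2 and 13.6 against 15.2 and 11.6 FPKM, so that the enzyme's transcript was measured where the receptor's was listed at 0. Kitl, the gene of the KIT ligand, was listed at 0 in all 4 libraries. Cdh1, which encodes the KLRG1 ligand E-cadherin, reached at most 0.04 FPKM. Srgn, the gene of the proteoglycan serglycin, overlapped between groups at 950 and 954 against 1346 and 604 FPKM. Lgals3 (687 and 677 against 420 and 278 FPKM), Lgals1 (506 and 518 against 500 and 223 FPKM) and S100a8 (163 and 157 against 34.2 and 18.9 FPKM) were lower in both.

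Signalling partners of the members were also set beside them. Of 24 genes, 19 were measured, and 6 stood higher and 6 lower with Ang II in both replicates. Among all tested genes, 24.4% were higher and 33.5% lower. The median log2 fold change of the 19 was 0.45, with 0 past the adjusted threshold. Of the 19, 5 had an IL-33 mean and 1 an Ang II mean under 1 FPKM. These entered through a single group, so the filter favoured their directions. The Src-family kinase genes on whose products CD45 acts did not stand alike. Lck stood at 124 and 125 against 148 and 17.5 FPKM, with the groups overlapping. Fyn stood at 0.04 and 0.12 against 43.5 and 5.71 FPKM, higher in both, and entered the test only through the Ang II libraries. Grb2, an adaptor, stood at 120 and 120 against 117 and 41.6 FPKM, and Tbk1, a kinase that ICOS engages, at 50.5 and 52.3 against 43.7 and 13.4 FPKM. Of the Gi protein genes, through which the Ptgdr2 product signals, Gnai2 was lower in both (80.7 and 97.5 against 75.6 and 34.9 FPKM) and Gnai3 higher in both (47.3 and 52.2 against 55.3 and 85.2 FPKM). Msn, the gene of the CD44 linker moesin, stood at 24.9 and 23.0 against 27.8 and 39.1 FPKM.

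For the 5 members with a mean of at least 20 FPKM, the gene with the most similar profile over the 4 libraries was sought among 2255 other genes of that level with at least 1 FPKM in every library. Likeness was the Euclidean distance between centred log2(FPKM + 1) profiles, and it rests on 4 libraries of which a pair are near-copies. For Cd69 it was Spry2, an ERK feedback inhibitor gene, at a distance of 0.154 (10.8 and 9.50 against 92.8 and 67.3 FPKM). For Ly6a it was Cmtm7 (0.050), for Cd44 Kdelr1 (0.052), for Klrg1 Gpr171 (0.042) and for Icos Mtfr1l (0.034). Cd69 had the most distant nearest gene of the 5.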

How the data were processed

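RNA-seq libraries were made from purified mouse lung ILC2s. Per the labels' protocols, cDNA came from a SMARTer low-input kit, was then PCR-amplified, and reads were paired-end (Illumina NovaSeq). Molecular identifiers are not mentioned, so duplicates from PCR may remain, and amplification from few cells can widen the spread between libraries. The authors deposited FPKM for each gene (unit per the file headers). HISAT, StringTie, edgeR and the build mm10 appear in the submitters' processing notes, without role or version. No count model was applied, since the unit is normalized.

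Columns were matched to samples by name. Genes averaging 1 FPKM or more over the IL-33 mean and both Ang II columns (9215) were tested on log2(FPKM + 1) with limma 3.58.1 in R 4.3.3 (lmFit, eBayes with a mean-variance trend, 1 residual degree of freedom before moderation). The single IL-33 value is taken to have the spread of the Ang II pair. Fold changes on this scale understate the change of low genes. Adjustment was Benjamini-Hochberg over all tested genes, with a threshold of 0.05. The fit was tried on simulated data whose spread was narrower than that of the Ang II pair. That trial therefore does not show how well the tests perform on these data. A gene is called higher (or lower) with Ang II in both replicates when both values lie above (or below) both IL-33 values, and measured when it entered the test. Positions and transcripts come from GENCODE M21 (GRCm38, the assembly of mm10), where 55141 gene models were matched by identifier. Alternatives covered the replicates, the pseudocount, the filter, the scaling, the trend and each library left out.

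All 10 members are named, with up to 6 genes of each related list by highest mean level and genes linked directly to a member. Hdc, Polr2a, Gusb and the single markers of ILC2 identity and of other cell types were named after their values had been seen. One gene that this rule names is not reported here by name, though it is counted in its list. The members and lists were chosen with earlier results of these data known.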

Additional observations from a re-analysis of the deposited data

How the results depend on the processing

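Among the 7 measured members, Cd69, Ly6a, Cd44 and Ptprc kept a positive log2 difference under every alternative run, libraries left out included. With all 4 libraries kept, their values were 2.90 to 3.08, 1.47 to 1.61, 0.91 to 1.06 and 0.94 to 1.11. With single libraries left out, they ranged more widely, from 2.80 to 3.14, 1.25 to 1.82, 0.83 to 1.12 and 0.86 to 1.15. When each IL-33 library was entered on its own, limma called 457 genes higher and 1090 lower, and Cd69 (2.97) and Ly6a (1.54) then passed. Adjusted p over the alternatives ranged from 0.0121 to 0.310 for Cd69 and from 0.044 to 0.560 for Ly6a. Adding the replicate number as a block to that fit called 0 genes higher and 0 lower, with adjusted p = 0.113 for Cd69 and 0.124 for Ly6a. Deviations of same-numbered libraries correlated at -0.019 across genes. Because the IL-33 libraries differ by about sampling noise, that value cannot show whether the replicate number pairs the samples. Leaving out an Ang II library leaves no residual spread, so those are values without a test. Over single libraries left out, the log2 difference of Klrg1 ranged from -0.05 to 0.61, of Icos from -0.42 to 0.12 and of Kit from -2.78 to 0.06. Klrg1 and Kit changed sign without Ang II replicate 2 and Icos without Ang II replicate 1. Among all 10 members, the count of those higher in both ranged from 4 to 7. The count of those lower in both ranged from 0 to 2. The upper ends were reached only with 1 Ang II library left. These counts include Icosl, Thy1 and Ptgdr2, which were not tested, and were not made for all genes under each alternative. With median-ratio scaling 1 member, Kit, was lower in both. Scaling to a sum of 1000000 moved the median of all genes to 0.16, and with a minimum mean of 5 FPKM Kit had no value. Depth is unknown, and for genes as low as Kit, Icosl and Thy1 it limits what a value near 0 shows.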

Other observations

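Relatives of Ly6a differed in how they stood in the libraries. The family was looked up after the values of Ly6a had been seen, though Ly6e and Ly6g already stood in lists described above. Ly6e, the other abundant gene of the family, stood at 276 and 319 FPKM under IL-33 alone, against 333 and 392 FPKM with Ang II added. It was thus higher in both Ang II libraries, by less than Ly6a (log2 difference 0.28 against 1.54). Ly6d stood at 0.76 and 1.00 FPKM against 42.7 and 21.2 FPKM, also higher in both Ang II libraries, from IL-33 values of at most 1.00 FPKM. Ly6k was listed at 0 under IL-33 alone and reached 35.2 and 0.09 FPKM with Ang II, and Ly6c1 was at 0.07 and 0 against 0.09 and 26.8 FPKM, so each was above 1 FPKM in a single library. Ly6f was listed at 0 in all 4 libraries, and Ly6c2, Ly6g and Ly6i reached at most 0.33, 0.28 and 0.13 FPKM. None of these values was tested as a family.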
